A study of Homo sapiens with 8 samples.

Results

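The tumor suppressor p53 switches on a defined set of genes when DNA is damaged or cells are stressed, and 44 of these directly activated targets were followed here through RNA-seq of SW1990 cells, an established human pancreatic adenocarcinoma line. The 44 genes, of 38637 in the deposited table, were taken from a list of p53 targets for arrest, repair, death and metabolism. The list was not set by their values, but earlier results of these data were known when it was chosen. Of the 44 genes, 41 had enough reads to be tested. TP53INP1, EDA2R and SPATA18 were not tested, since none of them exceeded 11 counts in any library. The series holds 8 libraries in 4 groups of 2. Vector 2 and 3 came from SW1990 cells carrying an empty vector, and EBF2-OE 2 and 3 came from SW1990 cells made to overexpress the transcription factor EBF2. Vehicle 1 and 2 came from SW1990 cells given vehicle, and GSK-LSD1 1 and 2 came from SW1990 cells given GSK-LSD1, an inhibitor of the histone demethylase LSD1 (KDM1A), at a concentration labelled 2000 µM, a unit that could not be settled from the sources used here. Treatment time, the promoter of the EBF2 construct and whether the overexpressing cells were 1 clone are not given in the sources used here. Nothing states that the 2 libraries of a group came from separate cultures, so the p-values measure the spread between these libraries, which may be technical.

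In unstressed cells p53 is kept scarce by MDM2, a ubiquitin ligase that is itself a p53 target. Stabilized p53 binds paired decamer motifs near its targets and raises their transcription. CDKN1A (p21) then blocks cyclin-dependent kinases, XPC and DDB2 serve nucleotide excision repair, BBC3 (PUMA) and PMAIP1 (NOXA) promote mitochondrial apoptosis, and the sestrins and TIGAR adjust growth signaling and sugar metabolism. Many of these genes also answer to other transcription factors, so their RNA is not a measure of p53 protein.

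The libraries held 20453362 to 27054876 counts each. EBF2 stood at 28 counts in each Vector library, at 5818 in EBF2-OE 2 and at 90100 in EBF2-OE 3, so the overexpression was present in both libraries and far from equal. The epithelial keratins KRT8 and KRT18 were abundant, at 20033 to 71480 counts. KRT19, EPCAM and CDH1, which are also markers of ductal epithelium, did not exceed 57 counts in any library. The line is named here as the labels give it, and its identity was not tested. Of the fibroblast markers, 4 of 6 were over 1 TPM in every library (TPM is the read count divided by the listed gene length and scaled to the same total in every library), and their summed level was 50.8 to 66.8 TPM. Leukocyte markers summed to 2.84 to 8.02 TPM and endothelial markers to 0.503 to 5.02 TPM, with a mean of 4.95 in Vehicle, 2.71 in GSK-LSD1, 0.758 in Vector and 0.620 in EBF2-OE. The 5 epithelial markers together were at 6250.2 TPM in the mean of Vehicle, 4712 in GSK-LSD1, 3847 in Vector and 4902 in EBF2-OE. Acinar markers did not exceed 0.0844 TPM in sum, with PRSS1 and CELA3A at 0 in every library. The part of these markers in the results below was not tested. By the listed coordinates, 14 of the 44 genes overlap a gene on the other strand, and the strand setting of the counting is not given in the sources used here. Among them are CDKN1A, MDM2, CCNG1, XPC, FBXO22, FAS, BBC3, AEN, PIDD1, PLK3, SESN1 and TP53I3, whose counts can hold reads of the partner.

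Of the 44 genes, 37 had an entry among the RefSeq promoter sequences of GRCh38.p14, which span 250 bases before to 50 bases after the start of transcription. The p53 response element consensus was searched there as 2 adjacent decamers, on both strands, with the core C and G of each decamer required. A match of at least 17 of the 20 bases was found for 10 of the 37 genes (27.0%), against 1.37% of all 27305 genes with a promoter. A match of at least 18 bases was found for 5 genes (13.5%), against 0.359%. The limits on matches were set after the matches were seen, and the genes were listed as direct p53 targets, so these shares describe the list and test nothing. The best match of each gene follows, 5′ to 3′ on the strand of the gene, with bases that match the consensus in capitals and mismatches in lower case.
DDB2: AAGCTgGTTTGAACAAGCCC
AEN: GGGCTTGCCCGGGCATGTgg
FAS: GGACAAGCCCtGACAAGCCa
MDM2: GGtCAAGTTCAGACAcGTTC
PANK1: GGGCAgGaCTGGGCATGCTC
FDXR: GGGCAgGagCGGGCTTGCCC
GDF15: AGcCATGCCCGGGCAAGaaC
PMAIP1: GAGCgTGTCCGGGCAgGTCg
RPS27L: GGcCTAGagCAGACAAGCCC
SESN1: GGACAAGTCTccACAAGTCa

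The DDB2 match had 19 of 20 bases and lay at chr11:47214969-47214988 on the plus strand. The MDM2 match, with 18 bases, lay at chr12:68808923-68808942 on the plus strand. PMAIP1, GDF15 and RPS27L, each with a match of 17 bases, are among those that rose with GSK-LSD1 below. Their matches lay for PMAIP1 at chr18:59899811-59899830 (plus), for GDF15 at chr19:18386186-18386205 (plus) and for RPS27L at chr15:63157527-63157546 (minus). SESN1, at chr6:109009018-109009037 (minus), and FDXR, at chr17:74872996-74873015 (minus), are metabolic members. The other genes with a match, DDB2, AEN, FAS, MDM2, PANK1, FDXR and SESN1, did not pass with GSK-LSD1. CDKN1A, which rose most with GSK-LSD1, had at best 5 mismatches in the same search. RRM2B and FBXO22, which also rose, had no promoter entry. A match is a description of letters and does not show that p53 was bound in these cells, and the window leaves out elements farther away.

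In TPM, which allows genes to be compared, the 44 genes together made up 1641 TPM in the mean of the Vehicle libraries, 1697 in GSK-LSD1, 1647 in Vector and 1669 in EBF2-OE. By group mean, DDB2 was the most abundant member in the Vehicle libraries (283 and 322 TPM over the pair) and in the GSK-LSD1 libraries (279 to 287 TPM). CDKN1A was the most abundant by group mean in the Vector libraries (181 to 295 TPM) and in the EBF2-OE libraries (228 to 318 TPM), although DDB2 was above it in Vector 3. The CDKN1A range enclosed that of DDB2 in Vector (184 to 195 TPM) and lay above it in EBF2-OE (200 to 216 TPM). BAX and CMBL were among the 5 most abundant members in every group, with group means of 112 to 135 TPM and 89.1 to 111 TPM. At the other end, FAS was at 1.92 to 3.28 TPM in group mean, and ACER2 and TRIM22 were at 0.699 to 1.09 TPM in group mean outside the EBF2-OE libraries. Levels of single genes below are CPM, read counts scaled to library size with TMM factors over all 8 libraries, given as pairs in library order, which is 2 and 3 for Vector and EBF2-OE and 1 and 2 for Vehicle and GSK-LSD1.

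**Figure D1:**
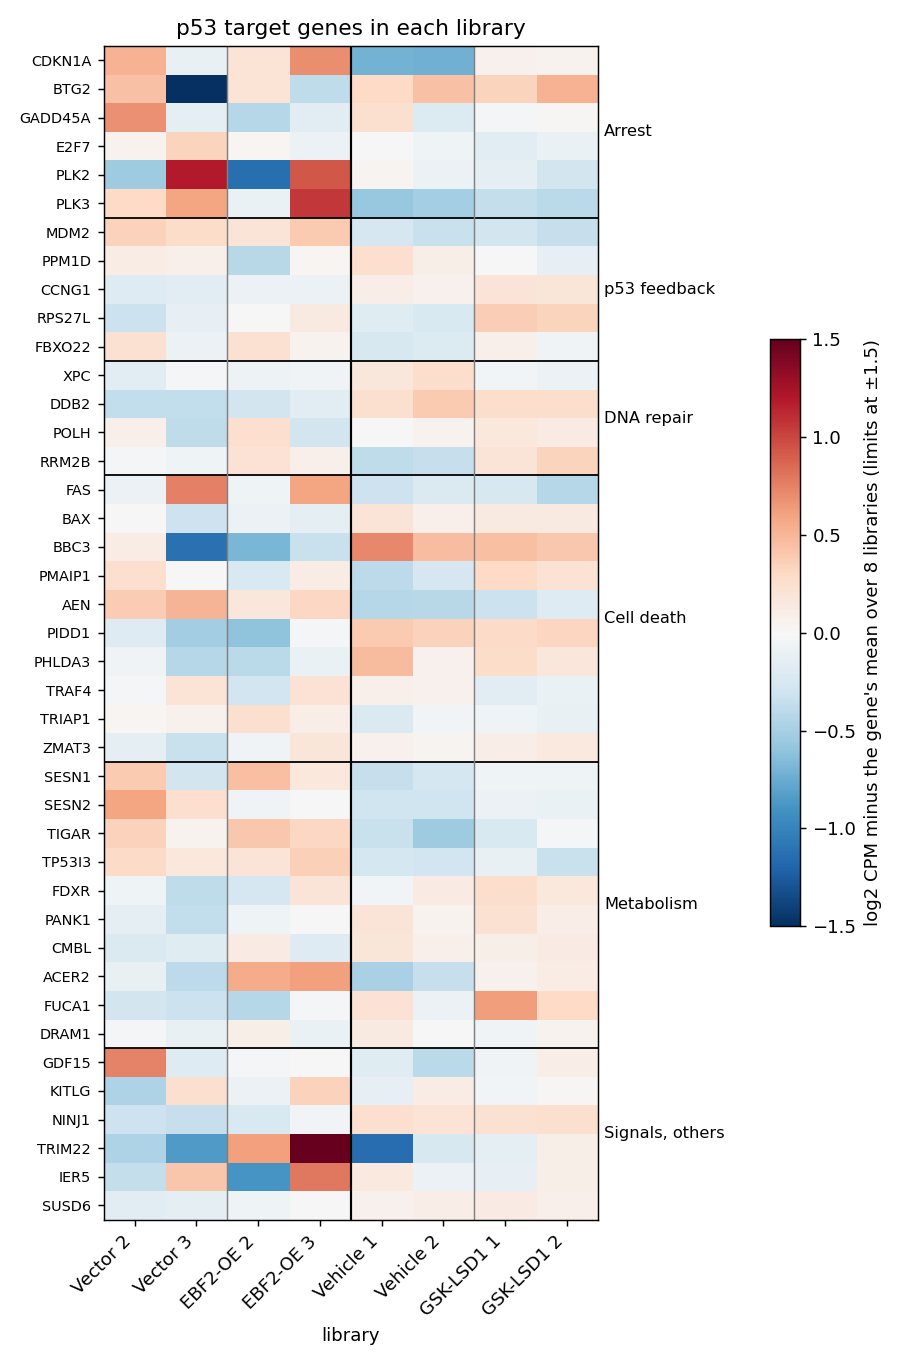
Level of each of the 41 tested p53 target genes in each of the 8 libraries, as log2 CPM minus the mean of the gene over the 8 libraries, with genes in rows grouped by role and color limits at ±1.5. CDKN1A and MDM2 are lower in both Vehicle libraries than in both Vector libraries, and BTG2, PLK2 and BBC3 differ most between the 2 Vector libraries.

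With GSK-LSD1, 6 members rose and 2 fell of 41 tested. CDKN1A, RRM2B, PMAIP1, RPS27L, GDF15 and FBXO22 were higher than with vehicle, and XPC and TRAF4 were lower. Counts were compared by the quasi-likelihood test of edgeR, with p adjusted by Benjamini-Hochberg over all genes and passed under 0.05. The 14.6% of members that rose stand beside 9.86% of all 16059 genes tested, and the 4.88% that fell stand beside 8.87%. Past a fold of 1.5 as well, CDKN1A and RRM2B rose and none of the members fell, beside 2.53% of all genes that rose and 2.04% that fell. The median log2 fold change of the members was 0.04, against -0.01 over all genes. Both GSK-LSD1 libraries lay above both Vehicle libraries for 18 members (43.9%, all genes 30.0%) and below them for 7 (17.1%, all genes 30.2%). When all 8 libraries shared a single estimate of the spread, only RRM2B of the 8 still passed, while 0.598% of all genes rose and 0.109% fell. Without GSK-LSD1 1, FBXO22, GDF15 and TRAF4 no longer passed, without GSK-LSD1 2 these and XPC did not, and without Vehicle 1 FBXO22 did not. The genes that rose and fell were 4.29% and 2.59% of all genes without GSK-LSD1 1 and 4.78% and 3.28% without GSK-LSD1 2. The shared spread, a biological coefficient of variation, was 13.5%, against 5.87% in the fit of the 4 libraries alone. In such bulk RNA, more RNA per cell and more cells that express a gene cannot be told apart.

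With EBF2 overexpression, none of the 41 members passed the test, and none of the 15560 genes tested did either (0.0%, smallest adjusted p 0.208 by edgeR). EBF2 itself, at 28 counts in each Vector library and 5818 and 90100 in EBF2-OE, was among the genes that did not pass. The absence of calls therefore does not show that the members were unchanged. At an unadjusted p under 0.05, TRIM22 and ACER2 were higher and SESN2 was lower, beside 0.945% and 0.392% of all genes. DESeq2 called none of the members, beside 0.0386% of all genes higher and 0.00643% lower. Both EBF2-OE libraries lay above both Vector libraries for 12 members (29.3%, all genes 12.1%) and below them for 4 (9.76%, all genes 10.8%). The median log2 fold change of the members was 0.10, against 0.00 over all genes, and it was -0.02 without EBF2-OE 3. The biological coefficient of variation in these 4 libraries was 19%.

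Between the control groups, Vector against Vehicle, 7 members were higher in Vector and 5 were lower. AEN, CDKN1A, MDM2, PLK3, SESN2, TIGAR and TP53I3 passed as higher (17.1% of 41, beside 13.6% of all 16019 genes tested), and CCNG1, CMBL, DDB2, NINJ1 and PIDD1 passed as lower (12.2%, beside 13.2%). Past a fold of 1.5, 6 were higher and 2 lower, beside 5.79% and 10.2% of all genes. The pairs did not overlap for 13 members higher in Vector and 15 lower, or 31.7% and 36.6% of 41, beside 35.6% and 35.3% of all genes. These groups differ by experiment as well as by vector, which cannot be told apart, and they are the controls of the other comparisons. None of the 41 members passed without Vehicle 1, when 0.0120% of all genes were called higher and 0.0601% lower, or without Vehicle 2, when 0.204% and 1.21% were.

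**Figure D2:**
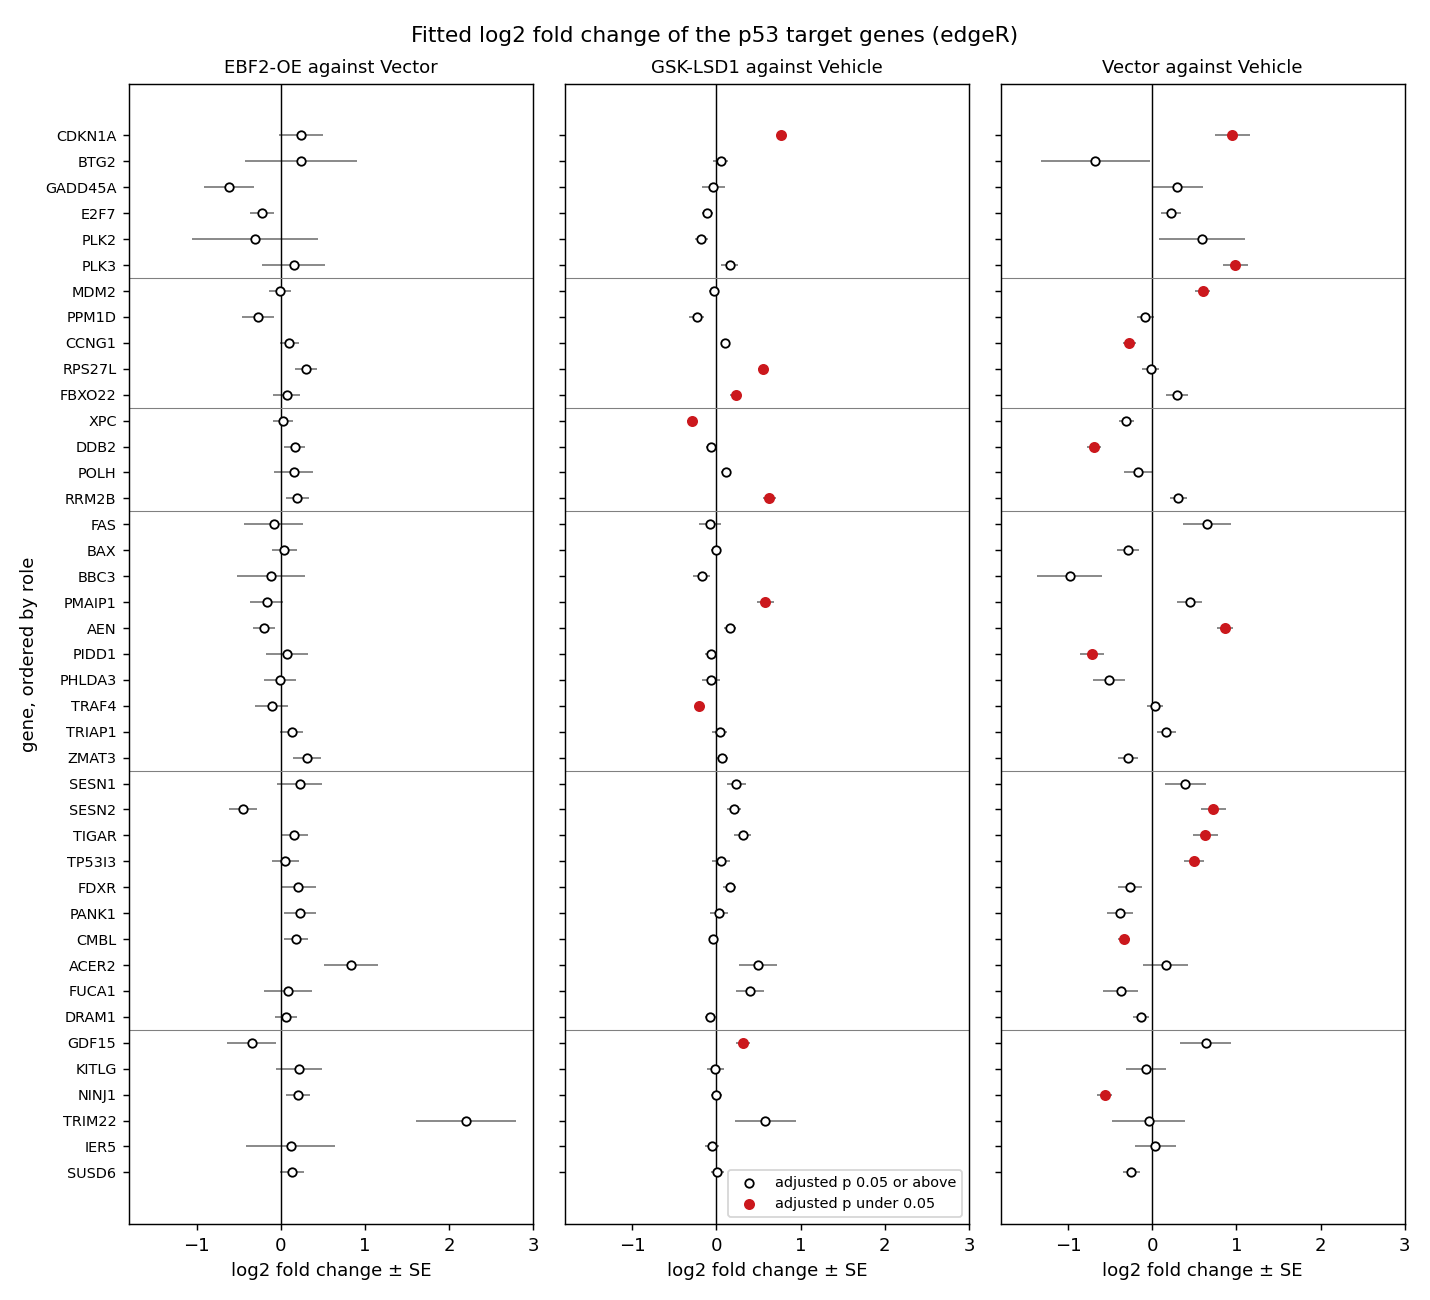
Fitted log2 fold change with its standard error for each of the 41 tested p53 target genes, 1 panel per comparison, with genes in the same order of roles in each and filled red points for an adjusted p under 0.05. No point is filled for EBF2-OE against Vector, 8 are filled for GSK-LSD1 against Vehicle and 12 for Vector against Vehicle.

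Among the 6 genes of cell cycle arrest, CDKN1A alone rose with GSK-LSD1. CDKN1A (chr6:36676463-36687332, plus strand, hg38) encodes p21, the main inhibitor of cyclin-dependent kinases downstream of p53. It stood at 157 and 155 CPM with vehicle and at 268 and 266 with GSK-LSD1, and at 367 and 236 in the Vector and 295 and 413 in the EBF2-OE libraries. The Vehicle and GSK-LSD1 pairs were tight and far apart, whereas the Vector and EBF2-OE pairs were wide and overlapped. The log2 fold change with GSK-LSD1 was 0.77 (SE 0.048), a 1.71-fold rise with an adjusted p of 4.94e-06 by edgeR. With the shared spread of 8 libraries the adjusted p was 0.162. For EBF2-OE the log2 fold change was 0.24 (SE 0.259) and did not pass. Vector stood above Vehicle by a log2 fold change of 0.95 (SE 0.208, adjusted p 0.0274 by edgeR). Vector 2 lay above and Vector 3 below both GSK-LSD1 libraries.

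BTG2, an antiproliferative gene induced early after damage, was at 24.2 and 26.8 CPM with vehicle and 24.7 and 28.2 with GSK-LSD1. In the Vector libraries it was at 26.6 and 5.44, and in EBF2-OE at 22.7 and 15.1. Vector 3 was the outlying low library, and no pair of groups compared was separated. GADD45A, a stress-induced growth arrest gene, stood at 29.0 and 16.4 in Vector, 13.4 and 16.2 in EBF2-OE, 21.3 and 15.6 in Vehicle and 17.7 and 18.3 in GSK-LSD1. Its log2 fold change with EBF2-OE was -0.62 (SE 0.298), the lowest of the members, with EBF2-OE 3 and Vector 3 at nearly the same level, and it did not pass. PLK3, a Polo-like kinase of the stress response, was at 20.045 and 24.4 in Vector, 15.1 and 33.9 in EBF2-OE, 10.9 and 11.4 in Vehicle and 12.7 and 12.3 in GSK-LSD1. Vector was above Vehicle without overlap, by a log2 fold change of 0.99 (SE 0.143, adjusted p 0.0119 by edgeR), and the EBF2-OE pair enclosed the Vector pair. E2F7, a repressor of E2F targets, kept to 18.9 to 27.5 TPM over the 8 libraries. PLK2, another Polo-like kinase, ran from 18.2 to 89.8 TPM, with both libraries numbered 3 of the vector experiment above those numbered 2.

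**Figure D3:**
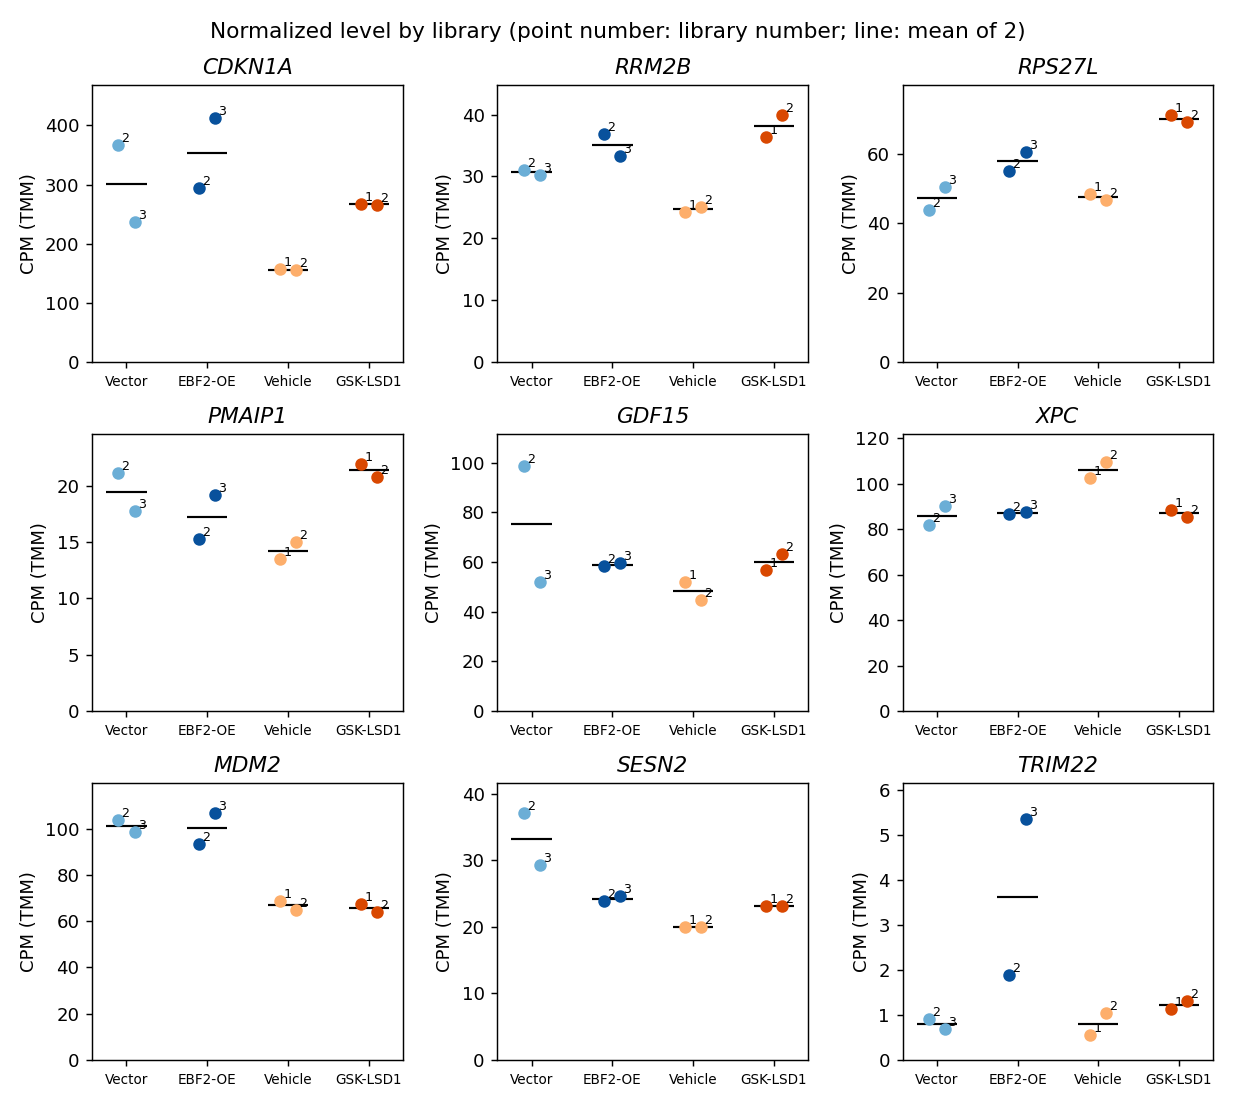
Level in CPM of 9 p53 target genes in each library, with the library number beside each point and a line at the mean of each pair. CDKN1A, RRM2B, RPS27L, PMAIP1 and GDF15 are higher and XPC is lower in both GSK-LSD1 libraries than in both Vehicle libraries, MDM2 and SESN2 passed the test for neither treatment, and TRIM22 is highest in EBF2-OE 3.

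Of the 5 genes that feed back on p53, RPS27L and FBXO22 rose with GSK-LSD1 and MDM2 did not pass. MDM2 (chr12:68808149-68850686, plus strand), the ubiquitin ligase that restrains p53, was at 68.6 and 64.9 CPM with vehicle and at 67.2 and 64.1 with GSK-LSD1, against 104 and 98.7 in Vector and 93.3 and 107 in EBF2-OE. The drug experiment and the vector experiment formed separate levels, with overlap inside each. Its log2 fold change was -0.03 (SE 0.0614) with GSK-LSD1 and -0.01 (SE 0.134) with EBF2-OE, neither of which passed, and 0.60 (SE 0.0845, adjusted p 0.0115 by edgeR) for Vector against Vehicle. RPS27L, a ribosomal protein-like partner of MDM2, was at 48.5 and 46.9 with vehicle and at 71.3 and 69.1 with GSK-LSD1, and at 43.97 and 50.6 in Vector and 55.2 and 60.5 in EBF2-OE. Both treated pairs lay above their controls. The log2 fold change with GSK-LSD1 was 0.56 (SE 0.0607, adjusted p 0.000192 by edgeR), and the adjusted p was 0.0584 with the shared spread.

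FBXO22, part of a ubiquitin ligase that acts on p53, was at 44.7 and 45.7 CPM with vehicle, 55.6 and 50.6 with GSK-LSD1, 61.8 and 49.4 in Vector and 61.5 and 54.8 in EBF2-OE. The rise with GSK-LSD1 was 0.23 on the log2 scale (SE 0.0686, adjusted p 0.0413 by edgeR), and it was lost by DESeq2 (adjusted p 0.111). PPM1D, the phosphatase Wip1 that switches off the damage signal, was at 35.5 and 31.5 with vehicle and 29.6 and 27.3 with GSK-LSD1, and at 32.1 and 31.3 in Vector and 22.2 and 30.2 in EBF2-OE. Each treated pair was below its control pair, with log2 fold changes of -0.24 (SE 0.0841) for GSK-LSD1 and -0.27 (SE 0.189) for EBF2-OE, and neither passed. Without Vehicle 2 the fall of PPM1D with GSK-LSD1 passed (-0.32, adjusted p 0.0175 by edgeR). CCNG1, which encodes cyclin G1, was at 98.3 and 96.6 with vehicle, 105 and 105 with GSK-LSD1, 80.2 and 81.8 in Vector and 86.8 and 86.5 in EBF2-OE. Both treated pairs stood above their controls by a log2 fold change of 0.10 (SE 0.0512 for GSK-LSD1 and 0.114 for EBF2-OE), which did not pass. Vector was lower than Vehicle, at -0.27 (SE 0.0755, adjusted p 0.0496 by edgeR), and this call was lost with DESeq2 (adjusted p 0.0712).

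The 4 repair genes moved in both directions with GSK-LSD1, as RRM2B rose and XPC fell. RRM2B encodes a ribonucleotide reductase subunit that supplies nucleotides for repair outside S phase. It was at 24.3 and 25.02 CPM with vehicle and 36.4 and 39.9 with GSK-LSD1, and at 31.1 and 30.3 in Vector and 36.8 and 33.3 in EBF2-OE. Both treated pairs lay above their control pairs. The log2 fold change was 0.63 (SE 0.0781, adjusted p 0.000443 by edgeR) with GSK-LSD1, and RRM2B was the only member that passed under every alternative tried for that comparison, with adjusted p from 4.9e-08 to 0.042. With EBF2-OE it was 0.20 (SE 0.136) and did not pass.

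XPC (chr3:14145145-14178601, minus strand), which recognizes helix-distorting lesions, was at 103 and 109 CPM with vehicle and 88.2 and 85.5 with GSK-LSD1, and at 81.6 and 90.3 in Vector and 86.7 and 87.7 in EBF2-OE. The 2 Vehicle libraries were the highest of the 8. The fall with GSK-LSD1 was a log2 fold change of -0.29 (SE 0.0567, adjusted p 0.00571 by edgeR), and EBF2-OE stood at 0.03 (SE 0.12). DDB2, the lesion-binding partner of XPC, was at 199 and 220 with vehicle, 201 and 202 with GSK-LSD1, 130 and 129 in Vector and 139 and 151 in EBF2-OE. The GSK-LSD1 pair lay inside the Vehicle pair, with a log2 fold change of -0.06 (SE 0.0581), while EBF2-OE lay above Vector at 0.16 (SE 0.12), and neither passed. Vector was lower than Vehicle by -0.69 on the log2 scale (SE 0.0822, adjusted p 0.00902 by edgeR). POLH, the translesion polymerase eta, ran from 9.27 to 14.6 TPM over the 8 libraries.

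Of the 12 death genes, 10 were tested, and with GSK-LSD1 PMAIP1 rose and TRAF4 fell. PMAIP1 (chr18:59899996-59904305, plus strand) encodes NOXA, a BH3-only protein that neutralizes MCL1. It was at 13.5 and 14.97 CPM with vehicle and 21.96 and 20.8 with GSK-LSD1, and at 21.2 and 17.7 in Vector and 15.2 and 19.2 in EBF2-OE. GSK-LSD1 was clear of Vehicle, and the EBF2-OE and Vector pairs overlapped. The log2 fold changes were 0.58 (SE 0.0985, adjusted p 0.00272 by edgeR) with GSK-LSD1 and -0.17 (SE 0.199) with EBF2-OE, the latter not passing. TRAF4, an adaptor protein of receptor signaling, was at 131 and 130 with vehicle, 111 and 117 with GSK-LSD1, 123 and 144 in Vector and 103 and 145 in EBF2-OE. The fall with GSK-LSD1 was -0.20 (SE 0.0508, adjusted p 0.0186 by edgeR).

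The other well-known death genes, BAX, BBC3 and FAS, did not pass with GSK-LSD1 or EBF2-OE, whereas PMAIP1, given above, passed with GSK-LSD1. BAX, the pore-forming effector of mitochondrial apoptosis, was at 83.0 and 76.9 CPM with vehicle, 80.3 and 79.7 with GSK-LSD1, 72.6 and 58.8 in Vector and 68.5 and 66.1 in EBF2-OE. Each treated pair lay inside its control pair, and the log2 fold change with EBF2-OE was 0.04 (SE 0.146). BBC3, which encodes PUMA, was at 26.1 and 21.9 with vehicle, 21.6 and 21.0 with GSK-LSD1, 17.1 and 7.32 in Vector and 9.83 and 12.6 in EBF2-OE. GSK-LSD1 was just under Vehicle at -0.17 (SE 0.1), EBF2-OE lay inside the Vector range at -0.12 (SE 0.406), and Vector was below Vehicle at -0.98 (SE 0.384), none of which passed by edgeR. The last of these passed with DESeq2 (adjusted p 0.0253) and, by edgeR, with genes of low counts kept (adjusted p 0.00185), without Vector 2 (-1.72, adjusted p 8.4e-05) and without Vector 3 (-0.48, adjusted p 0.0230). FAS, the death receptor, was at 7.21 and 7.74 with vehicle, 7.596 and 6.63 with GSK-LSD1, 8.42 and 15.2 in Vector and 8.54 and 13.5 in EBF2-OE. The log2 fold change of FAS was -0.08 in each comparison (SE 0.132 for GSK-LSD1 and 0.352 for EBF2-OE).

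AEN, an apoptosis-enhancing nuclease, was at 41.0 and 41.3 CPM with vehicle, 44.01 and 48.2 with GSK-LSD1, 71.5 and 78.7 in Vector and 61.8 and 68.3 in EBF2-OE. All 4 libraries of the vector experiment lay above all 4 of the drug experiment, and the log2 fold change of Vector against Vehicle was 0.86 (SE 0.0916, adjusted p 0.0081 by edgeR). PIDD1, the scaffold of the PIDDosome that activates caspase-2, was at 35.4 and 34.3 with vehicle, 32.9 and 33.8 with GSK-LSD1, 23.7 and 18.8 in Vector and 17.8 and 26.6 in EBF2-OE. It separated the experiments the other way, at -0.72 (SE 0.143, adjusted p 0.0219 by edgeR). PHLDA3, an inhibitor of AKT, was at 36.1 to 67.6 TPM, TRIAP1, an inhibitor of apoptosis in the mitochondrial intermembrane space, at 51.6 to 71.0 TPM, and ZMAT3, an RNA-binding protein, at 6.34 to 9.13 TPM. TP53INP1 and EDA2R had 2 to 11 and 0 to 8 counts, which is too few to compare groups.

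None of the 10 tested metabolic members passed with GSK-LSD1 or EBF2-OE, and 6 of them were higher in both GSK-LSD1 libraries than in both Vehicle libraries, as were 30.0% of all genes. SESN2 (chr1:28259452-28282491, plus strand), a sestrin that restrains mTORC1, was at 19.99 and 20.03 CPM with vehicle, 23.2 and 23.1 with GSK-LSD1, 37.1 and 29.4 in Vector and 23.8 and 24.7 in EBF2-OE. The pairs did not overlap in either experiment and the treated pair was higher in the drug experiment and lower in the vector experiment. The log2 fold changes were 0.21 (SE 0.0846) with GSK-LSD1 and -0.45 (SE 0.171) with EBF2-OE, which did not pass, and 0.73 (SE 0.145, adjusted p 0.0219 by edgeR) for Vector against Vehicle. SESN1, its relative, was at 8.17 and 8.64 with vehicle, 9.94 and 9.93 with GSK-LSD1, 13.6 and 8.61 in Vector and 14.2 and 11.6 in EBF2-OE, and its log2 fold change with EBF2-OE was 0.22 (SE 0.271).

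TIGAR, a phosphatase that diverts glucose toward the pentose phosphate pathway, was at 23.1 and 20.2 CPM with vehicle, 25 and 28.8 with GSK-LSD1, 37.0 and 30.3 in Vector and 38.7 and 36.4 in EBF2-OE. GSK-LSD1 stood above Vehicle by a log2 fold change of 0.31 (SE 0.101) with an adjusted p of 0.0565 by edgeR, which became 0.0402 with genes of low counts kept and 0.00766 without Vehicle 1. EBF2-OE overlapped Vector at 0.16 (SE 0.156). Vector was above Vehicle at 0.63 (SE 0.145, adjusted p 0.0305 by edgeR). TP53I3, a quinone oxidoreductase, was at 16.4 and 16.1 with vehicle, 18.2 and 15.5 with GSK-LSD1, 24.0 and 21.9 in Vector and 22.4 and 25.04 in EBF2-OE. It was higher in Vector than in Vehicle by 0.50 (SE 0.118, adjusted p 0.0329 by edgeR) and overlapped between treated and control libraries in both experiments. CMBL, a hydrolase, was at 170 and 158 with vehicle, 159 and 163 with GSK-LSD1, 129 and 133 in Vector and 163 and 131 in EBF2-OE. Vector was lower than Vehicle by -0.33 (SE 0.0759, adjusted p 0.03 by edgeR). ACER2, a ceramidase of the Golgi, was at 1.56 and 1.74 with vehicle, 2.30 and 2.37 with GSK-LSD1, 2.03 and 1.67 in Vector and 3.23 and 3.35 in EBF2-OE, from 39 to 75 counts a library. Both treated pairs were higher than their controls, and the log2 fold change with EBF2-OE was 0.84 (SE 0.324) without passing. The remaining metabolic members were FDXR (ferredoxin reductase, 32.9 to 50.1 TPM), DRAM1 (a lysosomal membrane protein of autophagy, 36.7 to 43.6 TPM), FUCA1 (lysosomal fucosidase, 2.76 to 5.55 TPM) and PANK1 (pantothenate kinase, 2.60 to 3.86 TPM). SPATA18 did not exceed 6 counts.

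In the group of secreted signals and other targets, GDF15 was the only member of 6 that rose with GSK-LSD1. GDF15 (chr19:18382170-18389176, plus strand), a stress cytokine, was at 52.0 and 44.7 CPM with vehicle, 56.9 and 63.3 with GSK-LSD1, 98.8 and 51.8 in Vector and 58.5 and 59.5 in EBF2-OE. Vector 2 was far above every other library. The rise with GSK-LSD1 was 0.31 on the log2 scale (SE 0.0834, adjusted p 0.026 by edgeR), and the call was lost without either of the GSK-LSD1 libraries. For EBF2-OE the log2 fold change was -0.35 (SE 0.294), not passing, and it became 0.21 without Vector 2. KITLG, the ligand of the KIT receptor, was at 21.99 and 25.9 with vehicle, 23.3 and 24.3 with GSK-LSD1, 17.4 and 28.3 in Vector and 22.5 and 30.4 in EBF2-OE, all overlapping, and its log2 fold change with EBF2-OE was 0.22 (SE 0.271). NINJ1, a membrane protein that ruptures the plasma membrane of dying cells, was at 50.5 and 48.9 with vehicle, 49.5 and 50.1 with GSK-LSD1, 34.0 and 33.4 in Vector and 36.1 and 41.1 in EBF2-OE. All 4 libraries of the vector experiment were lower, and Vector against Vehicle gave -0.56 (SE 0.0881, adjusted p 0.0137 by edgeR).

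TRIM22 (chr11:5689790-5710863, plus strand), an antiviral ubiquitin ligase that p53 and interferon both induce, had the widest difference of all members with EBF2-OE. It had 19 and 16 counts in Vector, 38 and 120 in EBF2-OE, 14 and 29 in Vehicle and 26 and 30 in GSK-LSD1, or 0.898 and 0.685, 1.89 and 5.36, 0.561 and 1.05, and 1.13 and 1.32 CPM. EBF2-OE 3, the library with more EBF2, stood above every other library. The log2 fold change with EBF2-OE was 2.20 (SE 0.592) with an unadjusted p of 0.00956 by edgeR, and it was 1.25 without EBF2-OE 3. It did not pass after adjustment unless genes with low counts were kept in the fit, when 0.255% of all genes passed as higher. With GSK-LSD1 the log2 fold change was 0.58 (SE 0.363) and did not pass. IER5, an immediate early gene, ran from 22.6 to 72.6 TPM, and SUSD6, a membrane protein, from 11.5 to 14.1 TPM.

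Genes repressed downstream of p21 were taken as a second group of 16 cell cycle genes, which the DREAM complex silences when p53 is active. With GSK-LSD1, 8 of the 16 fell and none rose, beside the 8.87% of all genes that fell, and their median log2 fold change was -0.17 against -0.01 over all genes. The 8 were CCNA2, CDC20, PLK1, FOXM1, AURKB, MKI67, CENPA and KIF20A, and none was past a fold of 1.5, beside 2.04% of all genes that fell past it. Their calls rest on the 4 libraries of the drug experiment. With a single spread over all 8 libraries, only 0.109% of all genes fell with GSK-LSD1, and the outcome for these 8 is not given here. CENPA, the centromeric histone, had the largest fall at -0.54 (SE 0.106, adjusted p 0.00573 by edgeR), from 27.0 and 22.4 to 17.3 and 16.7 CPM. PLK1, the mitotic Polo-like kinase, went from 173 and 177 to 142 and 144 CPM, a log2 fold change of -0.30 (SE 0.0491, adjusted p 0.00233 by edgeR). The cyclin-dependent kinase gene CDK1 did not pass, at 0.01 (SE 0.0511). With EBF2-OE none of the 16 passed, where 0.0% of all genes did, and the median of the 16 was -0.04. In Vector against Vehicle 3 were higher and 2 lower (18.8% and 12.5% of 16), beside 13.6% and 13.2% of all genes.

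Of 23 regulators of p53, 1 rose and 5 fell with GSK-LSD1 (4.35% and 21.7%), beside 9.86% and 8.87% of all genes. None of the 23 passed with EBF2-OE, where 0.0% of all genes did. The GSK-LSD1 calls rest on the 4 libraries of the drug experiment, as for the cell cycle genes above. MDM4, the partner of MDM2, was at 48.2 and 48.7 with vehicle and 42.5 and 43.2 with GSK-LSD1, a log2 fold change of -0.18 (SE 0.0631) that did not pass. KDM1A, the target of GSK-LSD1, was at 264 and 229 with vehicle and 211 and 214 with the inhibitor, a fall of -0.22 (SE 0.0644, adjusted p 0.0403 by edgeR). CDKN2A, whose locus encodes p16 and the MDM2 inhibitor ARF, fell from 421 and 275 to 173 and 163 CPM, at -1.05 (SE 0.144, adjusted p 0.000762 by edgeR), and was at 118 and 66.4 in Vector and 74.2 and 91.8 in EBF2-OE. Gene counts do not separate its 2 products. TP63, the p53 relative, rose by 1.97 on the log2 scale (SE 0.452, adjusted p 0.0129 by edgeR) on few reads, from 5 and 8 counts to 20 and 25. The other regulators that fell were PPP1R13L, CREBBP and RPL5, none past a fold of 1.5.

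Whether EBF2-OE and GSK-LSD1 differ in their effect on each member was tested as the difference of the log2 fold changes in a fit of all 8 libraries. None of the 41 members passed (0.0% of 16558 genes did, smallest adjusted p 0.0514 by edgeR). At an unadjusted p under 0.05, XPC was higher with EBF2-OE relative to GSK-LSD1 and PMAIP1, SESN2, RRM2B and AEN were lower, beside 7.66% of all genes in either direction. DESeq2 called none of the members, beside 0.242% of all genes higher and 0.338% lower. The difference was -0.76 (SE 0.215) for PMAIP1, -0.66 (SE 0.179) for SESN2 and -0.44 (SE 0.146) for RRM2B. For CDKN1A it was -0.54 (SE 0.292), for GDF15 -0.66 (SE 0.351) and for TRIM22 1.61 (SE 0.772), each with an unadjusted p above 0.05. With 1 library left out, these differences ran from -0.83 to -0.16 for CDKN1A, from -1.06 to -0.094 for GDF15 and from 0.67 to 2.17 for TRIM22.

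The spread inside a group set how fine a difference could be seen. The median absolute log2 ratio between the 2 libraries of a group over the members was 0.284 for Vector (all genes 0.219) and 0.233 for EBF2-OE (all genes 0.247). It was smaller in the drug experiment, at 0.107 for Vehicle (all genes 0.103) and 0.067 for GSK-LSD1 (all genes 0.104). Members differing by more than 1 on the log2 scale between libraries of a group numbered 3 in Vector and 4 in EBF2-OE. These were 7.32% (all genes 8.53%) and 9.76% (all genes 9.65%). In the drug experiment there were 0, beside 2.90% of all genes in Vehicle and 3.12% in GSK-LSD1. In Vector 3 over Vector 2 the members were PLK2 (1.72), BBC3 (-1.22) and BTG2 (-2.29). In EBF2-OE 3 over EBF2-OE 2 they were PLK2 (2.06), IER5 (1.68), TRIM22 (1.51) and PLK3 (1.17). In the drug experiment the widest were TRIM22 at 0.90 between the Vehicle libraries and FUCA1 at -0.33 between the GSK-LSD1 libraries.

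**Figure D4:**
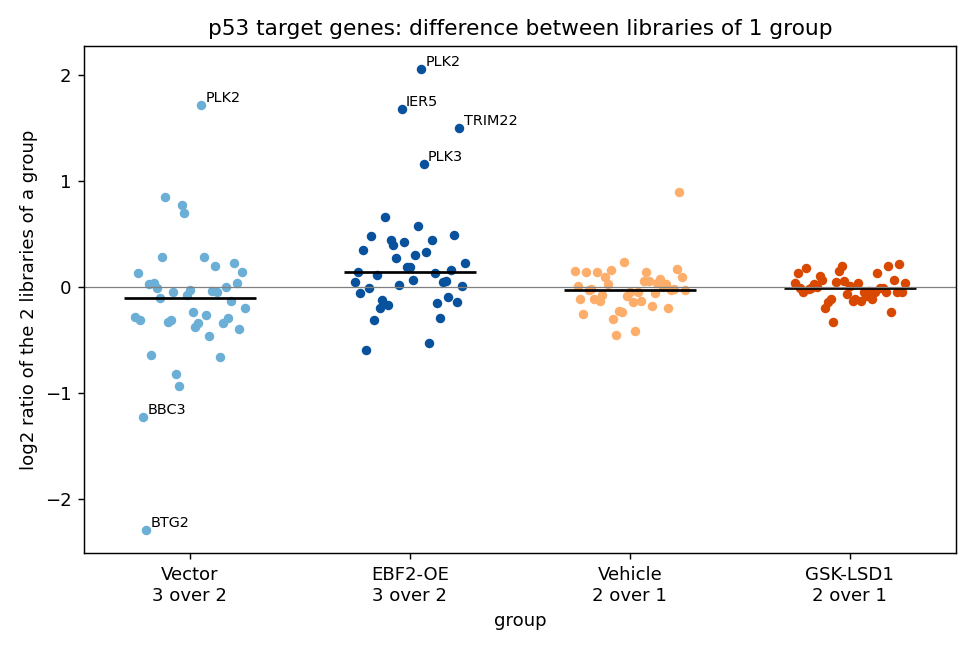
Log2 ratio of the 2 libraries of each group for the 41 tested p53 target genes, 1 point a gene with a line at the median, and names beside members over 1 in size. The points of Vehicle and GSK-LSD1 all lie within 1 of 0, while BTG2 reaches -2.29 in Vector and PLK2 reaches 2.06 in EBF2-OE.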

How the data were processed

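Poly(A) RNA was sequenced as paired reads, and the authors removed adapter, poly-N and low-quality reads, aligned the rest to hg38 with HISAT2 at default parameters and counted reads per gene model with HTSeq (versions and strand setting not given in the sources used here). The deposited table holds raw read counts and TPM per library. The deposited TPM values equal the counts divided by the listed gene length, rescaled to the same total in every library, and were used only to compare genes. From the counts, log2 fold changes and p-values were computed with edgeR 4.0.16 in R 4.3.3 (TMM scaling, filterByExpr with a minimum count of 10, quasi-likelihood test, two-sided, Benjamini-Hochberg adjustment over all genes tested, passed under 0.05), on the 4 libraries of each comparison and on all 8 for the difference of effects. DESeq2 1.42.0, DESeq2 size factors, other low-count filters, all 8 libraries in 1 fit, each library left out and a replicate block were the alternatives. The fit was tested on simulated data with a single spread for all genes, so that test does not show how it performs on these libraries. Levels are CPM with TMM factors over all 8 libraries. The libraries of a group differed by far more than counting noise (chi-square per degree of freedom 5.7 to 36.1), so they were not near-copies. Each was entered as 1 replicate, although this does not show that they came from separate cultures.

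The 44 members, the other gene lists and the tests were chosen with earlier results of these data known. Members given library by library were those that passed in any comparison, the 3 with the largest absolute log2 fold change in each, and 18 well-known members. Other lists name MDM4, KDM1A, RRM2, CDKN1B and genes that passed with a fold above 1.5, and the further cell cycle genes and regulators named were chosen after their values were seen. A further regulator fixed for naming is not reported here. Promoters came from RefSeq (GRCh38.p14). GADD45A, FBXO22, RRM2B, PHLDA3, TP53INP1, CMBL and TRIM22 had no entry used here.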

Additional observations from a re-analysis of the deposited data

How the results depend on the processing

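With 2 libraries a group, small changes of single members could not be told from the spread, most of all in the vector experiment. With no low-count filter, 1 member (TRIM22) was higher with EBF2-OE, beside 0.255% of all genes higher and 0.0393% lower. In the difference of effects 2 (CDKN1A and GDF15) were lower, beside 0.753% of all genes higher and 0.679% lower. TIGAR also rose with GSK-LSD1, beside 6.29% of all genes that rose and 5.91% that fell. In Vector against Vehicle FAS and GDF15 were also higher and BBC3, PHLDA3 and XPC also lower, with CCNG1 lost. Of all 25399 genes tested there without the filter, 2676 were higher and 2976 lower. With all 8 libraries in 1 fit, 1 member rose and 0 fell with GSK-LSD1, beside 0.598% and 0.109% of all genes. The log2 fold change of BAX with GSK-LSD1 was 0.000373 in that fit. Leaving out single libraries gave 4 to 7 members that rose and 0 to 5 that fell with GSK-LSD1, and 0 to 13 higher and 0 to 14 lower in Vector against Vehicle, with 0 in each direction whenever a Vehicle library was left out. The shares of all genes moved with these counts, in Vector against Vehicle from 24.7% higher and 24.1% lower without Vector 2 to 0.0120% and 0.0601% without Vehicle 1. Without Vehicle 1 and without Vehicle 2, the log2 fold change with GSK-LSD1 was 0.41 and 0.22 for TIGAR and -0.15 and -0.32 for PPM1D. The median of the members then ranged from -0.020 to 0.16 for EBF2-OE, from 0.023 to 0.082 for GSK-LSD1 and from -0.048 to 0.022 for Vector against Vehicle. Changes of sign without 1 library were looked up only for a chosen part of the members in each comparison. Members outside that part may have changed sign too. The single log2 fold changes found to change sign had these ranges for EBF2-OE: CDKN1A -0.054 to 0.61, BTG2 -0.49 to 1.82, MDM2 -0.12 to 0.085, XPC -0.027 to 0.093, FAS -0.46 to 0.39, BAX -0.11 to 0.22, BBC3 -0.61 to 0.64, SESN1 -0.074 to 0.61, GDF15 -0.75 to 0.21 and KITLG -0.074 to 0.60. For GSK-LSD1 they were MDM2 -0.067 to 0.015, DDB2 -0.13 to 0.014, FAS -0.17 to 0.020 and BAX -0.057 to 0.053. None of these was past the threshold, and the cause was not tested. The labels do not say what the library numbers share, so the numbers were not used as pairs in the main fits. Deviations of same-numbered libraries correlated at 0.352 in the vector experiment and -0.011 in the drug experiment. With a replicate block, which fits the library number, the biological coefficient of variation was 14.3% for EBF2-OE, against 19% without it. For GSK-LSD1 it was 6.01%, against 5.87%. What the numbers share was not tested. With the replicate block, 0 members passed for EBF2-OE, where 0.0257% of all genes were higher and 0.00643% lower. With that block 5 members rose and 2 fell with GSK-LSD1, with FBXO22 lost, beside 8.99% and 8.51% of all genes. DESeq2 lost FBXO22 too.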

Other observations

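Relatives of the members that are not counted among the p53 targets gave a comparison within families. Of 12 such genes, 11 were tested, and none passed with EBF2-OE, where 0.0% of all genes did. With GSK-LSD1, 1 of the 11 fell (9.09%) and 0 rose, beside 8.87% and 9.86% of all genes. That call rests on the 4 libraries of the drug experiment. With GSK-LSD1, CDKN1C, which encodes the p21 relative p57, fell from 82.2 and 69.1 CPM in the Vehicle libraries to 52.6 and 49.99 (log2 fold change -0.56, SE 0.0817, adjusted p 0.00109 by edgeR), while CDKN1A rose. CDKN1B, which encodes p27, was at 110 and 111 CPM with vehicle and 105 and 99.5 with GSK-LSD1, and did not pass (-0.12, SE 0.0528). RRM2, the S phase counterpart of RRM2B, was at 116 and 125 CPM with vehicle and 123 and 117 with GSK-LSD1, overlapping, at -0.01 (SE 0.0551). SESN3, the third sestrin, was at 34.3 and 35.2 CPM with vehicle and 34.2 and 35.9 with GSK-LSD1.

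In Vector against Vehicle, CDKN1C was lower at -1.56 (SE 0.346, adjusted p 0.0281 by edgeR) and SESN3 at -0.82 (SE 0.0993, adjusted p 0.0093 by edgeR), whereas CDKN1A and SESN2 were higher. Of the 11 relatives tested, 2 were lower there (18.2%) and 0 were higher, beside 13.2% and 13.6% of all genes. Among regulators of p53 past a fold of 1.5 there, ATR, HIPK2, EP300, SIRT1, SETD7 and RCHY1 were higher in Vector and CHEK2, CDKN2A and PPP1R13L were lower, or 6 and 3 of 22 tested, beside 5.79% and 10.2% of all genes. ATR, the kinase that senses replication stress, was at 73.3 and 74.6 CPM in Vector and 43.9 and 47.8 in Vehicle. CHEK2, the checkpoint kinase, was at 30.8 and 31.9 in Vector and 46.8 and 48.6 in Vehicle. Experiment and vector cannot be told apart in these values.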
